A study of Homo sapiens with 6 samples.

Results

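The genes described here are 48 human genes that license replication origins, fire them, build and protect the replication fork, or supply it with nucleotides. They were taken by name: a gene is a member if the array's annotation gives one of the listed symbols to a probe of the scanner table, whatever its values. The list itself was drawn up with earlier results of these data known, so no test was run over it. All 48 had a probe, 68 probes in all, and 45 genes had a probe above background on enough arrays to be tested, out of 10279 genes tested in the series. GINS1, PRIM2 and CCNE2 were not tested, because their probes were above background on 1, 2 and 0 arrays, all of them H-INV arrays.

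The cells were H460, an established human large cell lung carcinoma line. H-INV cells were those that crossed a pored membrane coated with basement membrane extract, and L-INV cells were those that stayed above it, after repeated rounds of selection in which each fraction was seeded again. Both subpopulations grew between rounds in RPMI-1640 without glucose, supplemented with fetal bovine serum, and were selected again at intervals, so they share the parent line, the medium and the number of rounds. Total RNA from 3 sets of each subpopulation was hybridised to Illumina HT-12 v4 BeadChips, 1 array per set. Whether the sets came from separate selections is not stated, so the p-values speak only of the spread among these 3 and 3 sets.

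All 6 arrays lay on 1 BeadChip, L-INV in the first 3 positions and H-INV in the other 3, so position and subpopulation cannot be told apart. Median raw intensity was 123 to 134 and 16368 to 16985 probes were above background on an array, with correlations of 0.995 to 0.996 within a subpopulation and 0.920 to 0.927 between them. Among epithelial markers, KRT19 (-4.12) and EPCAM (above background on 0 H-INV arrays, lower by at least 1.90-fold) fell, KRT8 fell by 0.30, KRT18 was at -0.27 without passing the test, KRT7 rose by 1.09 and CDH1 was not tested, all as log2 fold changes unless given as fold. Of 10 markers of leukocytes, endothelium and fibroblasts, 8 did not pass the filter, 7 of them (PTPRC, CD3E, PECAM1, VWF, COL1A2, DCN and LUM) above background on 0 arrays and COL1A1 on 2 H-INV arrays, and CD14 (-1.51) and CD68 (-1.41) were lower in H-INV cells.

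A cell copies its DNA once per division by separating licensing from firing. In G1, the origin recognition complex marks origins, and CDC6 and CDT1 load the ring of MCM2 to MCM7 there, an inactive helicase. In S phase, kinases recruit CDC45 and the GINS complex, which turn the ring into the active helicase, and polymerases, the sliding clamp PCNA and its loader follow at the fork. Most of these genes are transcribed in late G1 and S phase, and E2F factors, which bind sites close to their start sites, are the best known of their regulators.

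Printed here are promoters of MCM genes, of the gene that rose most (GINS2) and of the loading factor CDC6. Promoters of genes that did not rise (MCM7, ORC6, E2F1) or rose without any of the E2F words marked below (ORC1) are added. How far these words and the response went together is given further below, over all tested members with a promoter. The printed promoters were picked by call and by words, so they are examples only. Each runs from 250 bases before to 30 bases after the RefSeq start site on GRCh38.p14, 5′ to 3′ along the gene, with capitals marking the E2F words TTTCCCGC, TTTCGCGC, TTTGCCGC and TTTGGCGC on either strand.
MCM2 (chr3:127598161-127598440, plus strand): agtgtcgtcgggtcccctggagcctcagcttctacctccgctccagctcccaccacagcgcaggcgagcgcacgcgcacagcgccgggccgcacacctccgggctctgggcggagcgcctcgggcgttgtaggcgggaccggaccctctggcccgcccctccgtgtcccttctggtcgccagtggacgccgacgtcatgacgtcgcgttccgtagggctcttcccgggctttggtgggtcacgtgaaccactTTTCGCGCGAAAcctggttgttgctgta
MCM3 (chr6:52284713-52284992, minus strand): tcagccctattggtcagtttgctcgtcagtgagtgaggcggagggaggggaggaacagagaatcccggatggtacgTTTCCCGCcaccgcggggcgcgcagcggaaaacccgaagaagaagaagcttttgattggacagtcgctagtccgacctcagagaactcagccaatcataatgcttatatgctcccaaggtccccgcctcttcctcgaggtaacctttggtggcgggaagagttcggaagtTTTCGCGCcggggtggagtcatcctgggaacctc
MCM6 (chr2:135876414-135876693, minus strand): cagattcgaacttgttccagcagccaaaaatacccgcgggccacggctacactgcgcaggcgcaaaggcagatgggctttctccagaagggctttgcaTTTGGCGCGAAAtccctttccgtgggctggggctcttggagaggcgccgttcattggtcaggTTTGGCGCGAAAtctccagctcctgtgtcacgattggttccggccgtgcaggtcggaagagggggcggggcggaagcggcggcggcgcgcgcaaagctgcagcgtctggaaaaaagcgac
MCM7 (chr7:100101368-100101647, minus strand): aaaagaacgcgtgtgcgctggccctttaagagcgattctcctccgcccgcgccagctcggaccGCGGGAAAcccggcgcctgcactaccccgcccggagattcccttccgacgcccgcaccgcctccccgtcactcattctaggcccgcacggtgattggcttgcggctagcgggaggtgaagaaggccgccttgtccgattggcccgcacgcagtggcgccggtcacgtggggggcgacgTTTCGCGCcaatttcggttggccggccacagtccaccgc
GINS2 (chr16:85688925-85689204, minus strand): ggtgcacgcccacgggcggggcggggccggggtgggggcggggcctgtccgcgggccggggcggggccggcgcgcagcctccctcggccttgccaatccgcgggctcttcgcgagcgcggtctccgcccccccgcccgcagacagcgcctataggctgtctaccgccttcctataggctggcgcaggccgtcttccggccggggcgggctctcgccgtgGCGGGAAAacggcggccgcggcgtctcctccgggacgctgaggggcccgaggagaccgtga
CDC6 (chr17:40287629-40287908, plus strand): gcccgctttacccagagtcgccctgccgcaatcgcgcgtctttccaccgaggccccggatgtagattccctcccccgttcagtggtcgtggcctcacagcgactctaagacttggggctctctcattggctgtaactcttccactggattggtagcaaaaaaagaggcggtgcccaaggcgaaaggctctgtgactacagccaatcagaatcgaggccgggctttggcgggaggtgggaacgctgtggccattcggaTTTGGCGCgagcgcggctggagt
ORC1 (chr1:52404394-52404673, minus strand): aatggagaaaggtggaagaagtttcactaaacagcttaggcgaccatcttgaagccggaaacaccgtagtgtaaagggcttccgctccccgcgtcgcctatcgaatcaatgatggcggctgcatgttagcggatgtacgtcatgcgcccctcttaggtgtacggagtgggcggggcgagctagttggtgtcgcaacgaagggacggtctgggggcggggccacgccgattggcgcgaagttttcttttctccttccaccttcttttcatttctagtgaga
ORC6 (chr16:46689409-46689688, plus strand): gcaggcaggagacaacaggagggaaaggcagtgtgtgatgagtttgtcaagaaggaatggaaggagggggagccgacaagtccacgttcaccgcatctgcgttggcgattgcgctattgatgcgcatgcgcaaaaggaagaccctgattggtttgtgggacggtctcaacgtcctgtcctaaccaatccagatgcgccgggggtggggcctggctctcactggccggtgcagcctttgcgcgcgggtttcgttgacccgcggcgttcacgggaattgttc
E2F1 (chr20:33686356-33686635, minus strand): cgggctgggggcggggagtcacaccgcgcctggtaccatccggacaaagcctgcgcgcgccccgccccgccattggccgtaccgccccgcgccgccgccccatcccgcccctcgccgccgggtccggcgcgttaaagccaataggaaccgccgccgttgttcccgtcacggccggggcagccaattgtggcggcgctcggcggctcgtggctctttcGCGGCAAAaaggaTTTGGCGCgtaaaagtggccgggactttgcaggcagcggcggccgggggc

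Of 48 members, 44 matched a RefSeq promoter (MCM4, MCM5, GINS4 and CCNE2 did not). Over the table's promoters (250 bases before to 50 after the start site), 21 of the 44 (47.7%) held an E2F word, against 908 of all 27305 promoters (3.33%) and 484 of the 8400 promoters of genes tested (5.76%). All 4 MCM genes with a promoter held one. In MCM2 the 2 words were one palindrome just after the start site, the words overlapping on opposite strands, and MCM6 held 2 such overlapping pairs upstream. The CCAAT box, the site of NF-Y, was in 56.8% of members, 35.7% of all promoters and 37.7% of promoters of genes tested. The CHR word TTTGAA (either strand), known from genes of G2 and mitosis, was in 2 of the 44 members (4.55%). It was in 15.4% of all promoters and 10.1% of promoters of genes tested. Both were searched on either strand, and none of the 3 motifs contains another.

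Replication genes were higher in H460 H-INV cells as a group. Of the 45 tested, 39 rose, 1 fell (ORC5) and 5 did not pass the test (ORC6, MCM7, DBF4, RFC1 and E2F1). Over all genes tested, 32.6% rose and 25.4% fell at the same threshold, an adjusted p under 0.05 by limma over 10279 genes. The median member log2 fold change was 0.53, with a range from -0.38 to 1.23, beside a median of 0.05 over all genes. Changes were modest: the rises ran from 1.23-fold to 2.35-fold with a median of 1.51-fold. On the brightest probe of each gene, only GINS2, ORC1, MCM4 and MCM2 passed 2-fold. By that much, 4.22% of all genes rose and 6.02% fell, and 0 members fell. Without L-INV replicate 2 only GINS2 remained past 2-fold, and without background correction too, where ORC1 rose by 0.60 on the log2 scale. Among further probes of the other members, those of MCM3 (log2 fold change 1.10), MCM10 (1.04) and FEN1 (1.03) also passed 2-fold. So did a dim probe of RFC3 (1.03), above background on 0 L-INV arrays, and the rest did not. On 41 of 45 members the 3 H-INV arrays and the 3 L-INV arrays did not overlap, beside 64.5% of all genes. CLSPN, one of the 39, has only a bound. Without it 38 of 44 rose with a median of 0.52, and with it at its bound the median was 0.51. Bulk RNA gives an average over cells, so a different share of cells in a phase and a different amount of each RNA per cell cannot be told apart from these arrays. The study followed BrdU incorporation, a measure of cells in S phase, in both subpopulations in a separate assay, which is not analysed here.

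**Figure D1:**
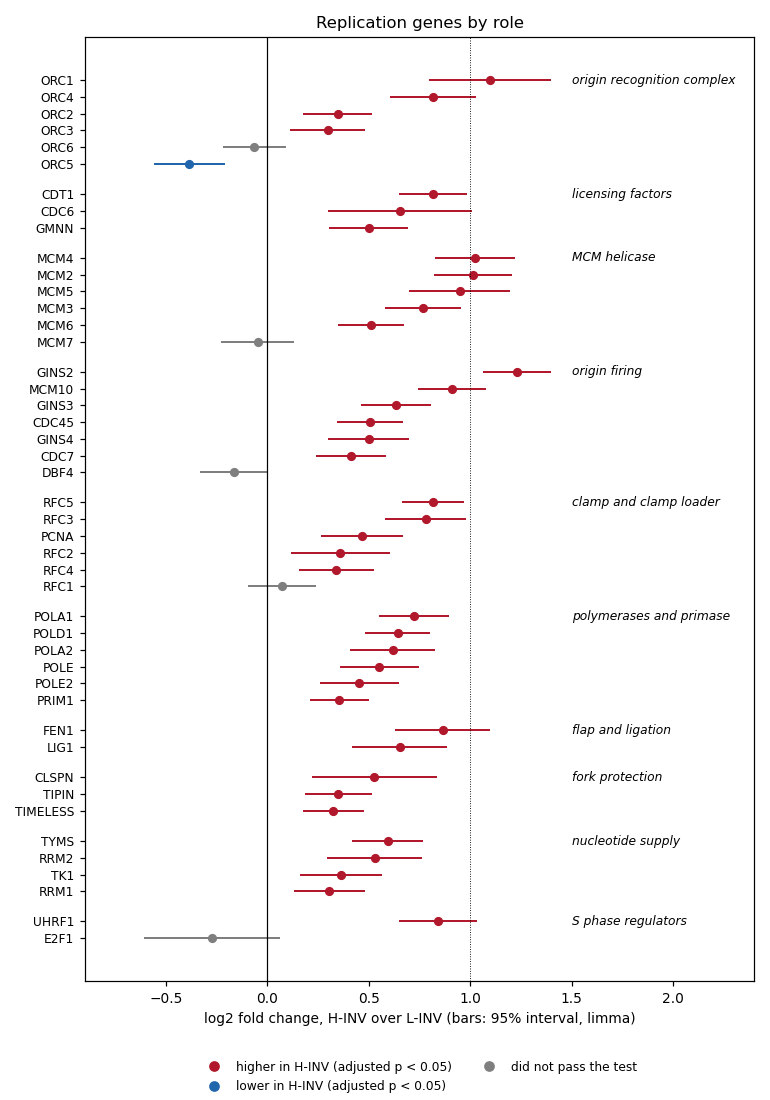
log2 fold change (x axis, H-INV over L-INV, 3 arrays each) of the 45 tested replication genes, grouped by role, with 95% intervals from limma and a dotted line at 2-fold. 39 genes lie above 0 and passed the test, and ORC5 alone passed it below 0.

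The arrays within a subpopulation were not equal for these genes. L-INV 2 gave the lowest of the L-INV values for 31 of 45 members and L-INV 3 the highest for 35, with median deviations from the L-INV mean of -0.07 and 0.07. The H-INV arrays lay at 0.55, 0.50 and 0.55 above the L-INV mean. The difference between the subpopulations was thus several times the spread among L-INV arrays. For all genes the same median deviation was 0.05 on each H-INV array after normalization. Brightness and change showed little relation: 25 members were among the brightest of 3 equal classes of genes, 13 in the middle class and 7 in the dimmest, where 32.1%, 34.6% and 31.0% of all genes rose, and Spearman's rho between level and log2 fold change over the 45 members was -0.05.

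By role, the MCM helicase had the highest median and the origin recognition complex the lowest among groups of 3 genes or more. The median log2 fold change was 0.86 for the MCM genes, 0.65 for CDC6, CDT1 and GMNN, and 0.32 for the origin recognition complex. It was 0.51 for origin firing, 0.41 for the clamp and its loader, 0.58 for polymerases and primase, 0.76 for flap removal and ligation, 0.35 for fork protection and 0.45 for nucleotide supply. Over the 15 licensing genes the median was 0.65, and over the 11 fork genes (clamp, loader, flap, ligation and fork protection) it was 0.47. Both licensing medians of 0.65 are the value of CDC6, a dim gene, and without background correction both were 0.43. The medians of fork protection and of the 11 fork genes count CLSPN at its measured value, though only a bound holds for it. With CLSPN at its bound, fork protection was at 0.32, level with the origin recognition complex. The middle value of the 11 fork genes was then that of RFC2, 0.36. These groups hold 2 to 7 tested genes each and the order of their medians was not tested.

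**Figure D2:**
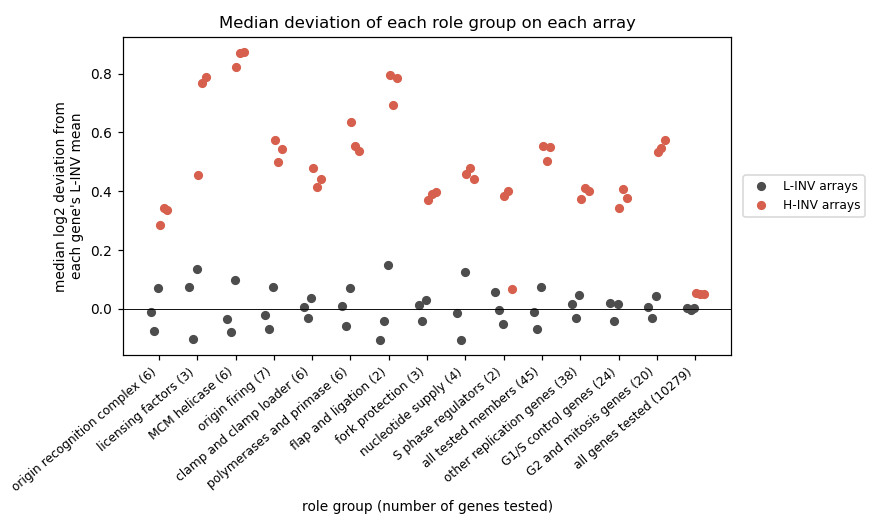
Median log2 deviation from each gene's own L-INV mean (y axis) for each role group on each of the 3 L-INV and 3 H-INV arrays. The MCM genes lie at 0.82 to 0.87 on the H-INV arrays, nucleotide supply at 0.44 to 0.48 and all genes at 0.05.

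The origin recognition complex has 6 subunits and binds DNA at origins. ORC1, its cell cycle regulated ATPase subunit, had a log2 intensity of 6.31, 6.15 and 6.70 in L-INV cells and of 7.42, 7.48 and 7.54 in H-INV cells. Every H-INV value was above every L-INV value, the L-INV values spread widely, and the log2 fold change was 1.10 ± 0.13 (SE, adjusted p = 0.000132 by limma). ORC4, another ATPase subunit, stood at 5.56, 5.45 and 5.60 in L-INV cells, above background on 2 of those arrays, and at 6.52, 6.23 and 6.31 in H-INV cells, a rise of 0.82 (adjusted p = 8.98e-05 by limma). ORC2 (0.35) and ORC3 (0.30), core subunits that stay together through the cycle, also rose. ORC4 is close to background: without background correction its rise was 0.31, beside 0.29 for ORC2 and 0.23 for ORC3, and with an offset of 50 it was 0.53.

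The remaining 2 subunits did not rise. ORC5, a core subunit, measured 9.82, 9.79 and 9.97 in L-INV cells and 9.49, 9.51 and 9.43 in H-INV cells. It was lower on every H-INV array and fell by 0.38 (adjusted p = 0.00213 by limma), and its second probe fell by 0.59. ORC6, the least conserved subunit, stood at 13.59, 13.58 and 13.51 in L-INV cells and 13.43, 13.52 and 13.53 in H-INV cells. The arrays overlapped, and the log2 fold change was -0.06 with a 95% interval of -0.21 to 0.09 (adjusted p = 0.426 by limma).

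CDC6 and CDT1 bring the MCM ring to the origin recognition complex, and geminin (GMNN) binds CDT1 and blocks it once S phase has begun. CDT1 measured 7.90, 7.72 and 7.86 in L-INV cells and 8.68, 8.63 and 8.61 in H-INV cells. The arrays were far apart for their spread, and the rise was 0.82 (adjusted p = 2.26e-05 by limma). Geminin, with 9.07, 9.10 and 9.29 against 9.61, 9.61 and 9.75, rose by 0.50 (adjusted p = 0.000956 by limma). RNA of the loading factor CDT1 and RNA of its inhibitor were thus both higher, and protein was not measured on these arrays. CDC6 was dim, at 5.50, 5.15 and 5.57 (above background on 2 L-INV arrays) against 5.76, 6.17 and 6.25. Its rise of 0.65 had a 95% interval of 0.31 to 1.00 (adjusted p = 0.0059 by limma) and did not pass by one-way ANOVA, the test of the study's methods (adjusted p = 0.0599). Without background correction it was 0.23, and with an offset of 50 it was 0.40.

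Of the 6 MCM genes, whose proteins form the ring in equal parts, 5 rose and MCM7 did not. MCM2 measured 9.03, 8.97 and 9.23 in L-INV cells and 10.10, 10.09 and 10.08 in H-INV cells, a 2.02-fold rise (adjusted p = 1.29e-05 by limma). MCM4, with 10.54, 10.29 and 10.45 against 11.51, 11.48 and 11.37, rose 2.03-fold (adjusted p = 1.45e-05 by limma). These 2 genes had nearly the same change, and in both the subpopulations stood apart on all arrays.

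MCM5, at 8.15, 8.36 and 8.57 in L-INV cells and 9.32, 9.37 and 9.24 in H-INV cells, rose by 0.95. MCM3, at 11.51, 11.54 and 11.69 against 12.27, 12.32 and 12.45, rose by 0.76 and by 1.10 on its second probe. MCM6, at 11.12, 11.08 and 11.23 against 11.67, 11.61 and 11.68, rose by 0.51. The 95% interval of MCM6 (0.35 to 0.67) lay below those of MCM2 (0.83 to 1.20), MCM4 (0.83 to 1.22) and MCM5 (0.70 to 1.19). MCM7 measured 12.21, 11.99 and 12.06 in L-INV cells and 12.09, 12.03 and 11.99 in H-INV cells. Its arrays overlapped (adjusted p = 0.618 by limma), its 95% interval of -0.22 to 0.13 lay below those of the other 5 genes, and its second probe gave 0.04, likewise not called. Its sign turned to 0.01 without L-INV replicate 1. In the printed promoters MCM7 has 2 E2F words, as MCM2 and MCM3 have.

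**Figure D3:**
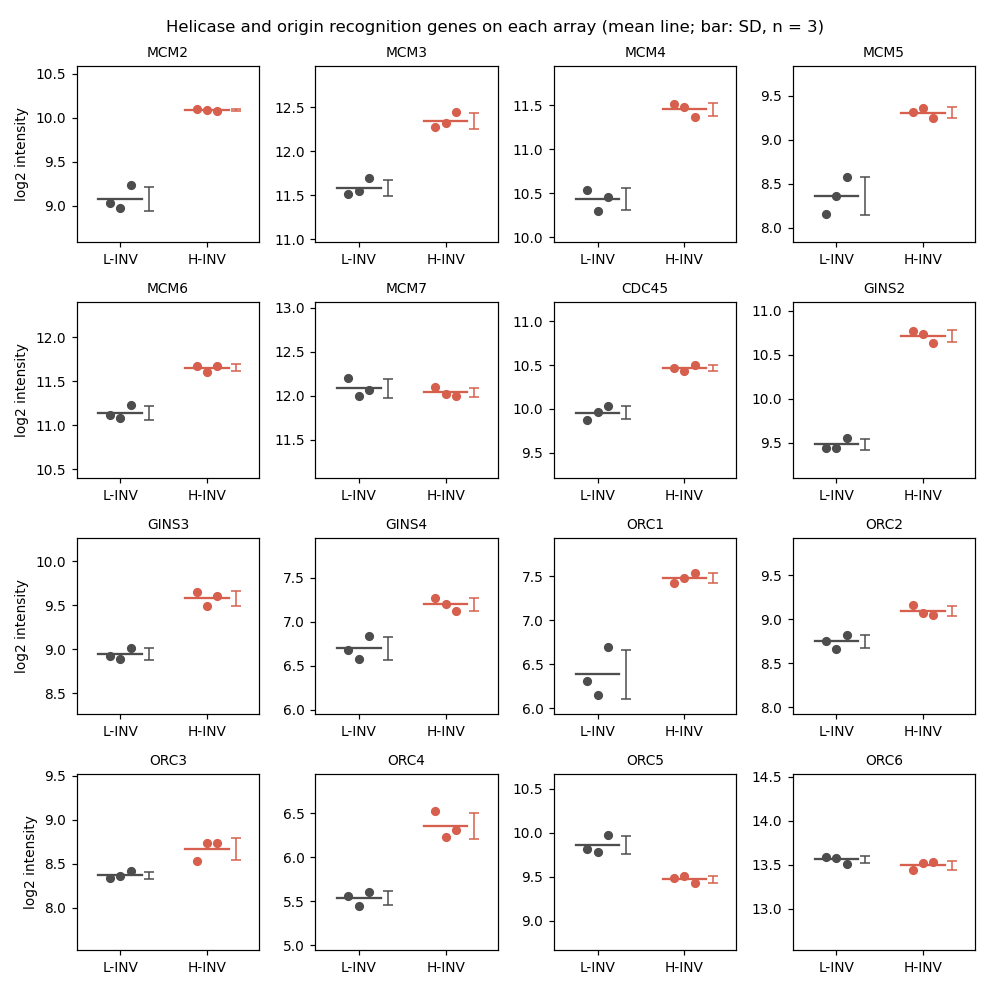
log2 intensity (y axis, each panel spanning the same range of 2 log2 units) of the MCM, CDC45, GINS and ORC genes on the 3 L-INV and 3 H-INV arrays, with group means as lines and SD as bars beside them. Among the panels, MCM7 and ORC6 overlap between the subpopulations and ORC5 is lower in H-INV cells.

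Origins fire when CDC7 kinase with its activator DBF4, and cyclin-dependent kinases, let CDC45 and GINS join the MCM ring, with MCM10 needed for the helicase to start. GINS2, one of the 4 parts of GINS, had the largest rise of all members. It measured 9.44, 9.44 and 9.56 in L-INV cells and 10.77, 10.73 and 10.63 in H-INV cells, a 2.35-fold rise (log2 fold change 1.23 ± 0.07 SE, adjusted p = 1.75e-06 by limma). The gap between the subpopulations was far wider than the spread within either, and GINS2 stayed past 2-fold in every alternative processing, from 1.13 to 1.27 on the log2 scale. Its partners rose less: GINS3 by 0.63 (8.92, 8.89 and 9.02 against 9.65, 9.49 and 9.60) and GINS4 by 0.50 (6.68, 6.57 and 6.84 against 7.27, 7.20 and 7.12), or by 0.27 without background correction. The 95% interval of GINS2 (1.07 to 1.39) lay above those of GINS3 (0.46 to 0.80) and GINS4 (0.30 to 0.69).

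CDC45, the other helicase partner, rose by 0.51, from 9.88, 9.97 and 10.03 to 10.46, 10.43 and 10.50 (adjusted p = 0.000304 by limma). MCM10 rose by 0.91, from 8.90, 8.81 and 8.96 to 9.85, 9.82 and 9.73 (adjusted p = 1.1e-05 by limma), and by 1.04 on a second probe. Every H-INV array was above every L-INV array for both genes. The measured changes of the kinase and its activator differed. CDC7 rose by 0.41, from 8.85, 8.81 and 8.97 to 9.25, 9.26 and 9.36 (adjusted p = 0.00137 by limma). DBF4 was lower on every H-INV array (5.75, 5.67 and 5.67, against 5.88, 5.77 and 5.93 in L-INV cells), but its log2 fold change of -0.16 did not pass (adjusted p = 0.0759 by limma). Their 95% intervals, 0.24 to 0.58 and -0.33 to 0.00, did not overlap. DBF4 lies close to background, whose lowest passing value was 5.39 to 5.49 on the arrays. Its log2 fold change ran from -0.21 to -0.06 over the alternatives, so the size of this difference is uncertain.

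At the fork, PCNA is the clamp that holds polymerases on DNA and RFC1 to RFC5 form the loader that opens it. PCNA measured 11.32, 11.16 and 11.22 in L-INV cells and 11.63, 11.62 and 11.86 in H-INV cells, a rise of 0.47 (adjusted p = 0.00169 by limma), with 0.79 on a second probe. Of the loader, RFC5 (0.82) and RFC3 (0.78) rose most and RFC4 rose by 0.34. RFC1, the large subunit that only the loader of PCNA contains, did not rise: it measured 8.55, 8.58 and 8.61 in L-INV cells and 8.56, 8.75 and 8.64 in H-INV cells (0.07, 95% interval -0.09 to 0.23). RFC5 went from 10.06, 10.10 and 10.14 to 10.87, 10.95 and 10.94, and its interval (0.67 to 0.97) did not reach that of RFC1.

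RFC2, a small subunit, was the least secure of the rises. It measured 7.68, 7.88 and 7.89 in L-INV cells and 8.38, 8.07 and 8.08 in H-INV cells, with 1 high H-INV array and 1 low L-INV array (0.36, adjusted p = 0.017 by limma). Its second probe, fitted with all probes, gave -0.12 without passing the test, and with the mean of both probes (adjusted p = 0.152), with one-way ANOVA (adjusted p = 0.0777) or without L-INV replicate 1 (adjusted p = 0.0601) the call was lost. Of 16 further probes of 15 members, 15 gave the same call as the brightest, RFC2 was the exception and 0 were called the opposite way.

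All 6 tested genes of the polymerases and primase rose. POLA1, the catalytic subunit of the polymerase that lays the first DNA on an RNA primer, went from 9.10, 9.07 and 9.10 to 9.84, 9.69 and 9.89 (0.72, adjusted p = 5.18e-05 by limma). POLA2, its regulatory subunit, rose by 0.62 and PRIM1, the primase subunit that makes the primer, by 0.35. POLD1, the catalytic subunit of the lagging strand polymerase, went from 8.38, 8.36 and 8.43 to 9.06, 9.08 and 8.95 (0.64, adjusted p = 6.49e-05 by limma). POLE, that of the leading strand polymerase, rose by 0.55 and its partner POLE2 by 0.45. The changes of these 6 genes lay within 0.35 to 0.72, narrower than those of the MCM or ORC genes. FEN1, which trims the flaps left between lagging strand fragments, rose by 0.86 (10.74, 10.59 and 10.98 against 11.67, 11.64 and 11.58), and LIG1, which seals them, by 0.65 (7.79, 8.07 and 8.06 against 8.66, 8.49 and 8.72).

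TIMELESS and TIPIN travel with the fork as a pair, and CLSPN (claspin) links them to checkpoint signalling. TIMELESS (0.32, from 10.21, 10.15 and 10.23 to 10.56, 10.50 and 10.49) and TIPIN (0.35, from 8.44, 8.52 and 8.53 to 8.75, 8.88 and 8.89) rose by nearly the same amount. CLSPN was above background on 0 L-INV arrays and on all 3 H-INV arrays, so it passed the background filter through H-INV cells alone and only a bound holds. H-INV cells had at least 1.16-fold more (adjusted p = 0.00879 by limma), with measured values of 5.45, 5.04 and 4.96 against 5.66, 5.55 and 5.82, and the call was lost by one-way ANOVA (adjusted p = 0.0678). A gene that passes the filter in this way had to differ, so its p adds nothing.

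All 4 genes of nucleotide supply rose. TYMS, thymidylate synthase, went from 11.26, 11.35 and 11.46 to 11.91, 11.95 and 11.99 (0.59, adjusted p = 0.000176 by limma). RRM2, the S phase subunit of ribonucleotide reductase, went from 9.13, 8.87 and 9.25 to 9.64, 9.63 and 9.57 (0.53). RRM1, its large subunit, rose by 0.31 and TK1, the salvage thymidine kinase of S phase, by 0.36. The 4 genes lay within 0.31 to 0.59, and the 95% interval of RRM1 (0.13 to 0.48) lay below those of MCM2 and MCM4.

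Among the S phase regulators, UHRF1, which guides maintenance methylation to newly copied DNA, rose by 0.84 (10.81, 10.69 and 10.90 against 11.69, 11.70 and 11.53). E2F1, a transcription factor of many of these genes, did not rise. It measured 6.52, 6.52 and 6.22 in L-INV cells and 6.29, 6.32 and 5.83 in H-INV cells, with overlapping arrays (-0.27, 95% interval -0.60 to 0.06, adjusted p = 0.137 by limma). E2F1 was dim, and its log2 fold change ran from -0.37 to -0.11 over the alternatives.

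E2F words and the response overlapped only in part. Among tested members with a promoter, 18 of 20 with an E2F word rose (median log2 fold change 0.62), and 18 of 22 without one rose (median 0.36). Over all genes tested, 38.4% of 484 with the word and 32.7% of 7916 without it rose. ORC1, with the second largest rise, has none in its printed promoter, while MCM7 and E2F1, which did not rise, have 2 each. These are letters in a window and not sites known to be bound. Only exact words were searched, so a gene without one, such as ORC1, can still have an E2F site in other letters.

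Most of the genes that did not rise, 5 of 6, lay among neighbours that were lower in H-INV cells, which was noticed after the values were seen and is given here with no test. Of 4 members on chromosome 7 (ORC5, MCM7, DBF4 and RFC2), 1 rose, and of 41 on other chromosomes 38 did. Chromosome 7 as a whole was shifted, with 18.9% of its 493 tested genes higher and 46.0% lower and a median log2 fold change of -0.18. Around each member the nearest tested genes, up to 10 on each side, were taken from the RefSeq order, giving 20 for each member but TYMS, which had 14. Their median was -0.46 around MCM7, where 14 of 20 were lower and 0 higher, -0.41 around ORC5, -0.34 around DBF4, -0.35 around ORC6 and -0.31 around RFC1. E2F1 was the exception, with 0.21. Around the 39 members that rose, the median of these medians was 0.01, with a range from -0.42 (RFC2) to 0.36 (RFC3).

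Set against their own neighbours, 44 of 45 members were higher than the neighbours' median, where 49.9% of all genes were. MCM7 exceeded its neighbours by 0.41, RFC1 by 0.38 and ORC6 by 0.29, while ORC5 was level with them at 0.02 above and E2F1 lay below them (-0.48). Of 8 members whose neighbours' median was under -0.3, 3 rose: RFC2, GINS3 and TK1. The part of the neighbourhood in these values was not tested.

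**Figure D4:**
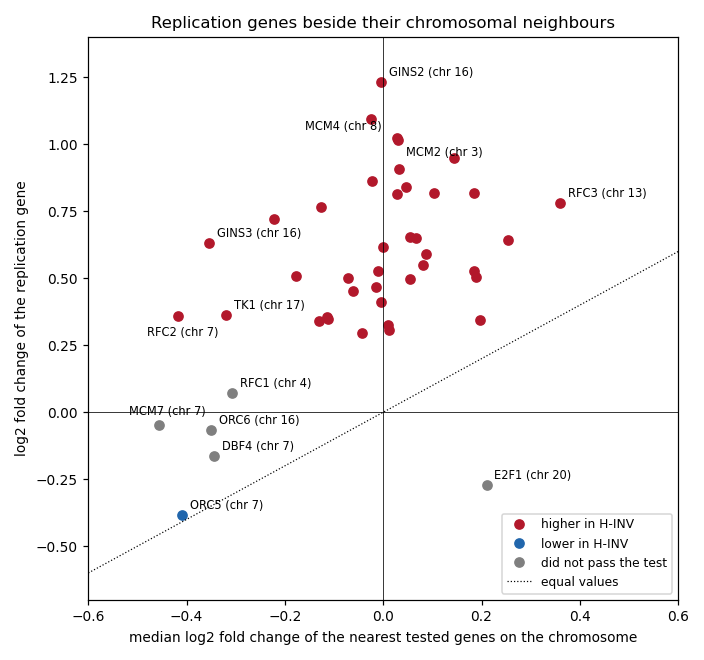
log2 fold change of each tested replication gene (y axis, H-INV over L-INV) against the median log2 fold change of its nearest tested genes on the chromosome (x axis), coloured by call, with a dotted line where both are equal. 44 of 45 points lie above the line, and 5 of the 6 genes that did not rise lie at the left, with neighbour medians from -0.46 to -0.31.

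Other replication genes moved in both directions. Of 44 listed, 38 were tested, 24 rose and 5 fell, with a median of 0.36. The largest changes were in POLD4, the smallest subunit of the lagging strand polymerase, which fell by 1.43 (7.77, 7.88 and 7.83 against 6.66, 6.29 and 6.24), and in rises of CHAF1A (1.22, above background on 1 L-INV array), FAM111A (1.21) and CHAF1B (1.10). CHAF1A and CHAF1B are subunits of the factor that puts histones on new DNA, and FAM111A is a protease that acts at the fork. POLD4 thus moved against POLD1, whose partner it is.

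Of 27 genes that control entry into S phase, 24 were tested, 15 rose and 5 fell, with a median of 0.38. The largest changes were in CCND3, a D-type cyclin (1.98, from 10.39, 10.17 and 10.41 to 12.25, 12.36 and 12.30), E2F2 (1.43, from 8.28, 8.11 and 8.19 to 9.67, 9.61 and 9.60), CDKN1A, the inhibitor p21, which fell by 1.42 (11.98, 11.93 and 11.92 against 10.69, 10.44 and 10.44), and CDC25A, a phosphatase that activates CDK2 (1.26). These 4 were picked by the size of their change, and all separated the subpopulations on every array. So did 21 of the 24 tested and 64.5% of all genes. For E2F1 the corresponding log2 fold change was -0.27, without passing.

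Genes of G2 and mitosis were higher by about as much as the members. All 20 listed were tested, 17 rose and 0 fell, with a median of 0.55, led by MKI67 (0.88), PLK1 (0.85), KIF11 (0.83) and CCNB1 (0.76). MKI67, a proliferation marker, measured 6.50, 6.49 and 6.59 in L-INV cells and 7.38, 7.44 and 7.39 in H-INV cells. CDK1, the mitotic kinase, was at -0.13 and AURKA at -0.01, neither passing the test. On the H-INV arrays the median deviation from the L-INV mean was 0.53 to 0.58 for these genes and 0.50 to 0.55 for the replication genes, and the arrays do not count the cells in each phase.

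**Figure D5:**
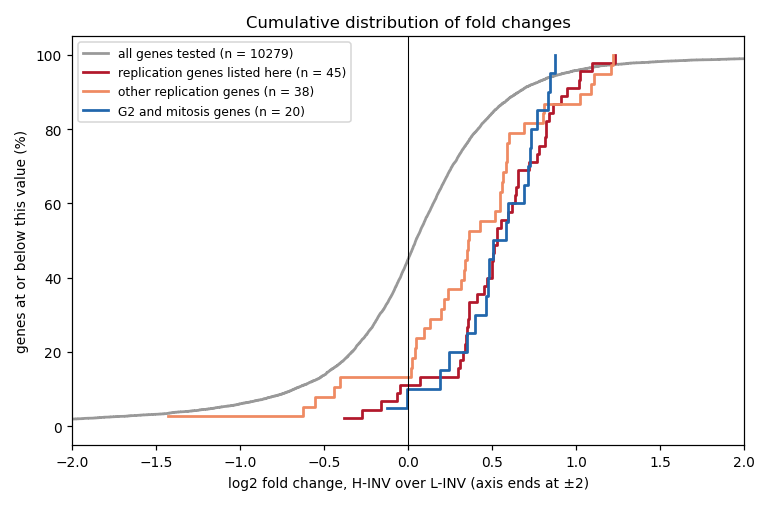
Share of genes in percent (y axis) at or below each log2 fold change (x axis, H-INV over L-INV, ends at 2 either way) for all 10279 genes tested, the 45 replication genes, 38 other replication genes and 20 genes of G2 and mitosis. The curves of the replication and mitosis genes lie to the right of that of all genes, with medians of 0.53 and 0.55 beside 0.05.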

How the data were processed

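Gene expression was measured on Illumina HT-12 v4 arrays in 3 sets each of L-INV and H-INV H460 cells. The authors deposited a scanner table of linear probe intensity without background correction or normalization, with a detection p-value deposited beside each value, and a second table of background-corrected, quantile normalized intensity. The submitters' processing notes name GenomeStudio and Partek; versions are not given in those notes.

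The scanner table was background-corrected in limma 3.58.1 (R 4.3.3; normexp with control levels inferred from detection p-values, offset 16), quantile normalized and log2 transformed. Probes with detection p under 0.01 on at least 3 of 6 arrays were kept, with the brightest probe for each gene. lmFit and eBayes compared H-INV with L-INV, two-sided, with Benjamini-Hochberg adjustment over 10279 genes. A probe above background on 0 arrays of a group was given a bound, the mean over arrays of the higher of its own value and the lowest above background. The script was tested on simulated data. The number of arrays limits the precision (median SE 0.0824 log2). The genes and lists, and the rule for naming genes (all members; the 4 largest changes of each other list), were chosen with earlier results of these data known. Promoters and gene order came from RefSeq tables of GRCh38.p14. Alternatives changed the table, background, scaling, offset, filter, probe choice, test, block and arrays. The authors' table was shifted by 40 before log2.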

Additional observations from a re-analysis of the deposited data

How the results depend on the processing

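Of 762 comparisons of a gene's call under an alternative with its main call, 749 kept it, 10 lost significance, 1 gained it and 2 turned in sign, both near 0: ORC6 to 0.0020 with 75th percentile scaling and MCM7 to 0.011 without L-INV replicate 1, with a range of -0.096 to 0.011 when 1 array was left out. Of 39 genes that rose, 34 kept the call in every alternative that tested them; requiring detection on all 6 arrays left out ORC4, CDC6 and CLSPN (36 rises of 42 tested). The others were RFC2, CDC6 and CLSPN, and ORC3 and TK1, which lost it with the authors' table, no detection filter and one-way ANOVA together (34 rises remained). The count of rises was 34 to 39, and the median log2 fold change 0.43 to 0.57. The count past 2-fold was least stable, at 2 with the authors' table, 1 without background correction, 2 with an offset of 50, 2 with the authors' table, no filter and ANOVA, and 1 to 5 when 1 array was left out. GINS2 alone remained past 2-fold without L-INV replicate 2, and MCM5 joined without L-INV replicate 3. With the replicate number as a replicate block, 39 genes rose and 2 fell, E2F1 being added (adjusted p = 0.0254 by limma). Same-numbered arrays did not deviate together (correlations of -0.07, -0.02 and -0.09), so no pairing by number was visible in these values. Whether the sets were prepared in pairs is not stated. Low signal limits CDC6, ORC4, CLSPN and DBF4, which lie close to background, and E2F1, which was dim too. CLSPN was left out, or set at its bound, as a choice made after seeing the data.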

Other observations

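Several members share a promoter region with a gene that starts in the opposite direction within 1000 bases, 13 partners in all. Of 7 tested partners of members that rose, 3 were higher, 2 were lower and 2 were not called. Over all genes tested, 32.6% were higher and 25.4% lower, so these few partners were not far from those shares. Their median log2 fold change was 0.04, beside 0.47 for the members. CDS2, opposite PCNA, rose by 0.71, and PXMP2, opposite POLE, by 0.51. MAP2K1, the kinase MEK1, opposite TIPIN, fell by 0.37, and AFMID, opposite TK1, fell by 0.43. TMEM258, opposite FEN1, was at -0.09 and did not pass. Opposite the members that did not rise, SLC25A40 (DBF4) fell by 0.80, VPS35 (ORC6) fell by 0.22 and AP4M1 (MCM7) was at -0.32 without passing.

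MCMBP, a partner of the MCM proteins, rose by 1.02 and TICRR, which helps CDC45 to load, by 1.09, both outside the genes named by rule and picked here after their values were seen. LRWD1, which binds the origin recognition complex, fell by 0.63 and was picked in the same way.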
